A study of Mus musculus with 20 samples.

Results

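Whole mouse testis on day 20 after birth was compared with whole testis on day 18. The comparison rests on 4 of the 20 arrays of the study, 2 titled as day 20 and 2 titled as day 18, chosen by title. The study followed the testis over 10 days, from day 0 to day 35 after birth, with 2 arrays a day. Total RNA was labelled for single-channel 3' expression arrays, and each array was deposited as linear intensities, with 1 value for each probe set. Both groups are untreated as far as the labels go, which give no strain or genotype and do not say whether a replicate was 1 animal or a pool. The p-values below therefore measure only the spread between replicate arrays of a day, pooled over all 10 days, which may be technical.

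1 of the day 18 arrays, replicate 2, is named as day 0 in a second label. Over the 16429 genes tested, its log2 intensities correlated across genes with those of the other day 18 array at r = 0.969, with the day 20 arrays at 0.950 and 0.951, and with both day 0 arrays at 0.769. It was kept under its title, and counts without it are given beside the main ones. The day 20 arrays correlated with each other at r = 0.968. All arrays have the same trimmed mean, 125.001, and the medians were 35.7 and 37.5 on day 20 and 38.4 and 38.9 on day 18.

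In the mouse the first wave of spermatogenesis is nearly synchronous, so that age after birth sets the most advanced germ cell in the tubules. Around these days late pachytene spermatocytes leave meiotic prophase, divide, and give the first haploid round spermatids. Spermatids then form an acrosome, the vesicle of enzymes and egg-binding proteins over the nucleus, and a tail made of an axoneme, outer dense fibres and a fibrous sheath. They later replace histones by transition proteins and then by protamines. Sertoli cells nurse the germ cells inside the tubule, peritubular myoid cells wrap it, and Leydig cells between the tubules make androgens.

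441 genes were higher and 135 lower on day 20 than on day 18, which is 2.68% and 0.822% of the genes tested. Calls required an adjusted p under 0.05 (limma, Benjamini-Hochberg over all 16429 genes) with a difference of at least 2-fold on the scale of log2(intensity + 7.83). For every call, 441 of 441 and 135 of 135, both day 20 arrays lay on the same side of both day 18 arrays. Higher calls also reached further: 90 were at least 4-fold and 17 at least 8-fold, while 0 of the lower calls were 4-fold. By the adjusted p alone 1240 genes were higher and 1319 lower, or 7.55% and 8.03% of those tested, so that 48.5% of these calls were higher. That share was 51.6% after quantile normalization and 70.4%, 1303 higher against 549 lower, with all arrays scaled to a common median, so the balance of small differences depends on the scaling. The median difference over all genes was -0.07 on the log2 scale.

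Leaving out the day 18 array with 2 labels gave 385 higher and 128 lower genes. Leaving out day 20 replicate 1 gave 289 higher, and leaving out day 18 replicate 1 gave 75 lower. By the adjusted p alone, leaving out 1 array gave 619 to 853 higher and 440 to 821 lower genes, the lowest of both without day 18 replicate 1, so counts by that rule are smaller with 3 arrays. Of the main calls, 207 of the 441 higher and 24 of the 135 lower genes were called without each of the 4 arrays in turn. In bulk tissue a change in the number of cells of a type and a change in RNA per cell cannot be told apart, which applies to every difference below.

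**Figure D1:**
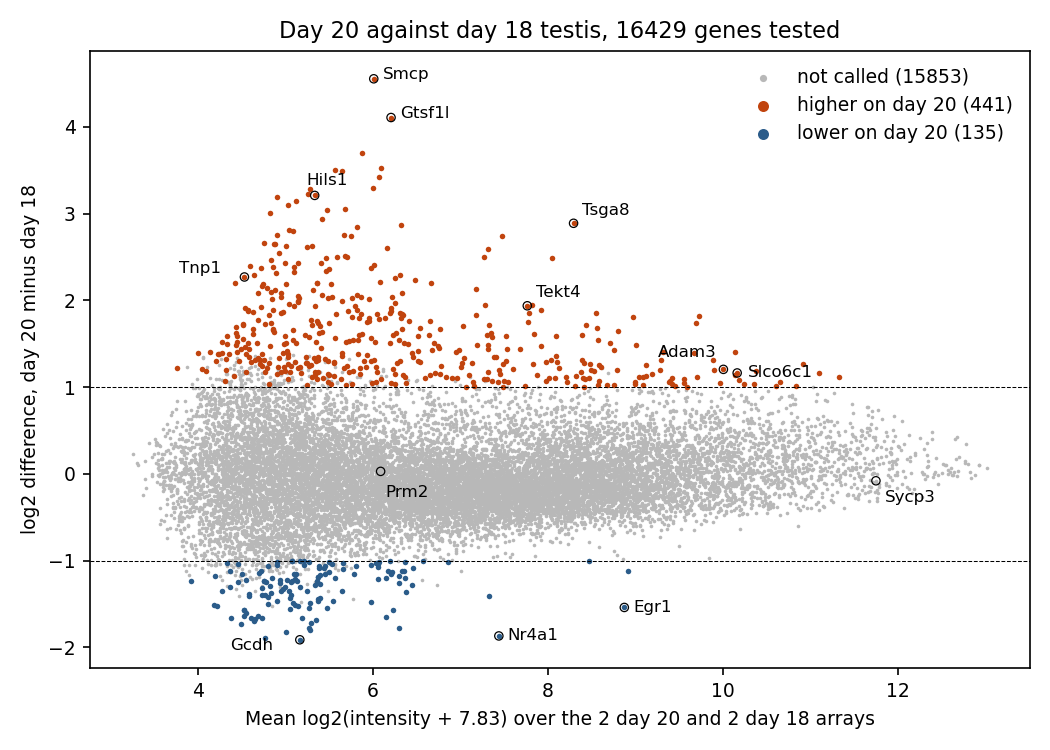
Log2 difference of day 20 minus day 18 against the mean log2(intensity + 7.83) over the 4 arrays, for the 16429 genes tested. The 441 genes higher on day 20 extend to a difference of 4.56, the 135 lower ones to -1.91, and most lower ones lie at low intensity.

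The largest rise was that of Smcp, a cysteine-rich protein of the mitochondrial sheath of sperm. Its intensity was 359 and 258 on day 20, against 3.21 and 8.15 on day 18, and the log2 difference was 4.56 ± 0.36 (standard error, SE; adjusted p = 8.45e-07). Both day 18 values lie at the low end of the scale, so the size of the difference depends on the constant of 7.83 that was added before taking logs. Gtsf1l, a homologue of the piRNA-pathway protein GTSF1, had 320.0 and 279 on day 20, against 10.1 and 9.81 on day 18 (difference 4.11 ± 0.34, adjusted p = 8.45e-07). Hils1, a spermatid linker histone variant, had 124 and 106 on day 20, against 5.02 and 5.83 on day 18 (difference 3.21 ± 0.24, adjusted p = 7.02e-07). These genes were near the low end on day 18 and clearly above it on day 20. Arrays without overlap were a condition for the ranking of the largest rises and falls, which every called gene met.

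Among the other 15 largest rises were further parts of the sperm tail and head. Spag6, a protein of the central pair of the axoneme, had 95.4 and 71.5 on day 20, against 1.20 and 3.03 on day 18 (3.19 ± 0.32). Capza3, a subunit of the actin-capping protein specific to the germ line, had 110.4 and 82.9 on day 20, against 3.83 and 3.96 on day 18 (3.14 ± 0.34). Efcab9, a calcium-binding partner of the CatSper calcium channel of sperm, had 233 and 194 on day 20, against 14.8 and 10.8 on day 18 (3.42 ± 0.31). Tsga8, a protein of haploid germ cells encoded on the X chromosome, had already been measured well above the low end on day 18: its values were 988 and 725 on day 20, against 99.7 and 116 on day 18 (2.89 ± 0.33). The remaining 8, Tex36, Spatc1l, Tmco2, Ddi1, Tex48, Dnajc5b, Armh2 and Spata46, differed by 2.87 to 3.70. All 15 largest rises kept their call under each of the 19 alternative settings.

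**Figure D2:**
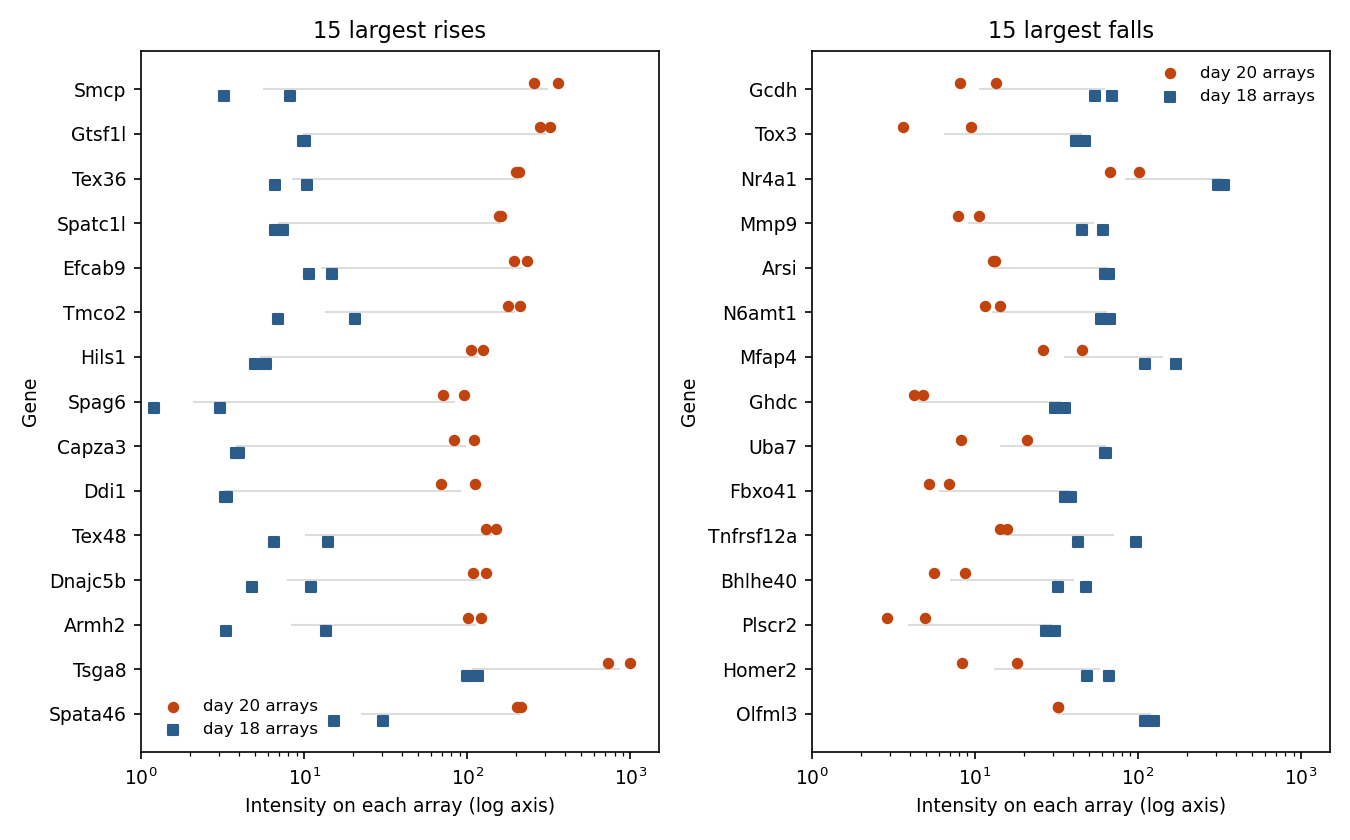
Intensity on each array (log axis) for the 15 genes with the largest rises and the 15 with the largest falls, day 20 arrays above day 18 arrays within each gene. Only genes whose arrays of the 2 days do not overlap were drawn. Day 20 points therefore lie to the right of day 18 points in the left panel, and to the left in the right panel. The day 20 values of the falls lie between 2.88 (Plscr2) and 102 (Nr4a1).

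The genes that rose were, for the most part, still far from their later level. Of the 441, 379 (85.9%) had their highest daily mean on day 30 or 35, a share not counted over all genes tested. Over the 441 the median of the means was 11.5 on day 14, 25.4 on day 18, 103 on day 20 and 624 on day 30. On day 18, 201 of them (45.6%) averaged under 21.63, the pooled 40th percentile of all arrays. Smcp averaged 5.68 on day 18, 309 on day 20 and 7210 on day 30, and Hils1 5.43, 115 and 6006. A smaller group of 50 genes had its highest mean of the whole course on day 20, some by a small margin and some at low intensity. Syt4 and Fgf2, for example, averaged 21.5 and 26.2 on day 20. Of all 441 risers, 254 were called higher and 10 lower on day 30 than on day 20 by the same rule. Higher calls in that step were 9.84% of all genes tested. Galntl6, a member of the polypeptide N-acetylgalactosaminyltransferase family, was among the 50, with 435 and 433 on day 20, against 106 and 108 on day 18 (1.94 ± 0.29, adjusted p = 0.00021). Its mean was 5.38 on day 14 and 238 on day 30. Toporsl had 668 and 674 on day 20, against 186 and 223 on day 18 (1.68 ± 0.28), and Ccdc83 662 and 618 on day 20, against 197 and 234 on day 18 (1.54 ± 0.32). Casp14, a caspase known from keratinocytes, had 233 and 221 on day 20, against 62.3 and 66.6 on day 18 (1.70 ± 0.33). On days 20, 30 and 35 Toporsl averaged 671, 570 and 645, Ccdc83 640, 590 and 600, and Casp14 227, 211 and 157. Ccdc83 and Casp14 have 3 and 2 probe sets, the lowest of which differed by -0.13 and -0.23, so the probe sets of a gene disagree. With the mean of all probe sets their calls were lost, at 0.43 and 0.74. Galntl6, Toporsl, Ccdc83 and Casp14 were picked after the values were seen.

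The promoter sequences of the risers were read because the genes rose over the same 2 days. The letters of the cAMP response element (CRE) were searched because the regulator CREM acts on spermatid genes through it. Crem was itself higher by the adjusted p alone, short of 2-fold, and its probe sets disagree, as given below. Any part of CREM in these rises was not tested. RefSeq promoters (GRCm38.p6, 250 bases before to 50 after each annotated start) were found for 352 of the 441 risers, 437 promoters in all. The CRE-like letters TGACNTCA, searched on both strands, were in 92 of these promoters, or 21.1%. They were in 7.68% of the 16597 promoters of all genes tested, in 5.93% of the 118 promoters of genes lower on day 20, and in 8.83% of all 32851 promoters in the table. Of the promoters of genes higher on day 18 than on day 14 (2239 genes, 13.6% of those tested), 9.13% held the letters. Of those of genes higher on day 30 than on day 20 (1616 genes, 9.84%), 16.2% did. Some genes have several promoters that overlap. Counted by gene, 81 of the 352 risers (23%) held the letters, against 9.04% of genes tested. The variant TGACATCA accounted for most of the gap, at 11.4% of riser promoters against 2.37% of the promoters of genes tested, while the palindrome TGACGTCA was in 2.97% and 2.58%. The risers also held more matches close to the start. Of their 101 matches 74.3% lay within 100 bases before it, against 56.5% of 1250 in genes tested and not called. A site in overlapping promoters of a gene, as in Aqp7, was counted for each of them.

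Other letters differed by fewer percentage points, a measure that depends on how common the letters are. ACAATGG, the core bound by SOX proteins, was in 7.09% of riser promoters and 2.71% of those of genes tested. Relative to the share in genes tested, this gap was about as large as that of the CRE-like letters. GTTGCCA, an arm of the X-box bound by RFX proteins, was in 7.78% and 4.24%. AACNGNC, the core bound by MYB proteins, was in 37.1% and 33.5%, TATAAA in 9.61% and 8.93%, and CCAAT in 43.2% and 37.2%. All were searched on both strands, after results of these data were known. Riser promoters had a mean GC content of 53%, against 59.1% for genes tested, and its part in these shares was not tested. A match is a description of the letters and does not show binding.

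The stretch from 120 bases before to 20 bases after the start is printed for 7 risers that span the groups described below and hold such a match. Sequences are from RefSeq, GRCm38.p6, on the strand of the gene, 5′ to 3′, with the CRE-like letters of either strand in capitals.
Tnp1, chr1:73015880-73016019, minus strand, a transition protein: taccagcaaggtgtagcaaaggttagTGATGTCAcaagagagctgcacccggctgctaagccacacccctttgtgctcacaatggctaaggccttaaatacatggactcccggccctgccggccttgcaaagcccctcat
Spag6, chr2:18698902-18699041, plus strand, an axoneme protein: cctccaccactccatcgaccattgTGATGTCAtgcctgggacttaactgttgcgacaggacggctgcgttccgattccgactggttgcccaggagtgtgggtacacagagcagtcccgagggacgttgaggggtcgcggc
Tmco2, chr4:121109198-121109337, minus strand, a predicted membrane protein: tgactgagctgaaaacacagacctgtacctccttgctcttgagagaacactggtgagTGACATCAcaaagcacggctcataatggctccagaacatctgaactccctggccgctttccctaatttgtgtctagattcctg
Spata46, chr1:170308699-170308838, plus strand, a spermatid protein: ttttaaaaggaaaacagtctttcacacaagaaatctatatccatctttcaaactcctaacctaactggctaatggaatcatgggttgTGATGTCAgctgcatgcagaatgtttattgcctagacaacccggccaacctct
Spam1, chr6:24791068-24791207, plus strand, a sperm hyaluronidase: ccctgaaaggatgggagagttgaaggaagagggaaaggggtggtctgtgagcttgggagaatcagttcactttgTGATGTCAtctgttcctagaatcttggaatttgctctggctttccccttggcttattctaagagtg
Tssk2, chr16:17898517-17898656, plus strand, a testis serine kinase: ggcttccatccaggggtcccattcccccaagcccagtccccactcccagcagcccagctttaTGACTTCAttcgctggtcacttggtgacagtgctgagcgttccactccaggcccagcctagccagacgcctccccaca
Aqp7, chr4:41048117-41048256, minus strand, a water and glycerol channel: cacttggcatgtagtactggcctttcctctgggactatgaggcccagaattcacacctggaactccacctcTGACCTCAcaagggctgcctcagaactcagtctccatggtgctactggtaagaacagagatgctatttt
The middle of the match lies 90 bases before the start in Tnp1, 92 in Spag6 and 29 in Spata46, so its distance differs between genes.

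**Figure D3:**
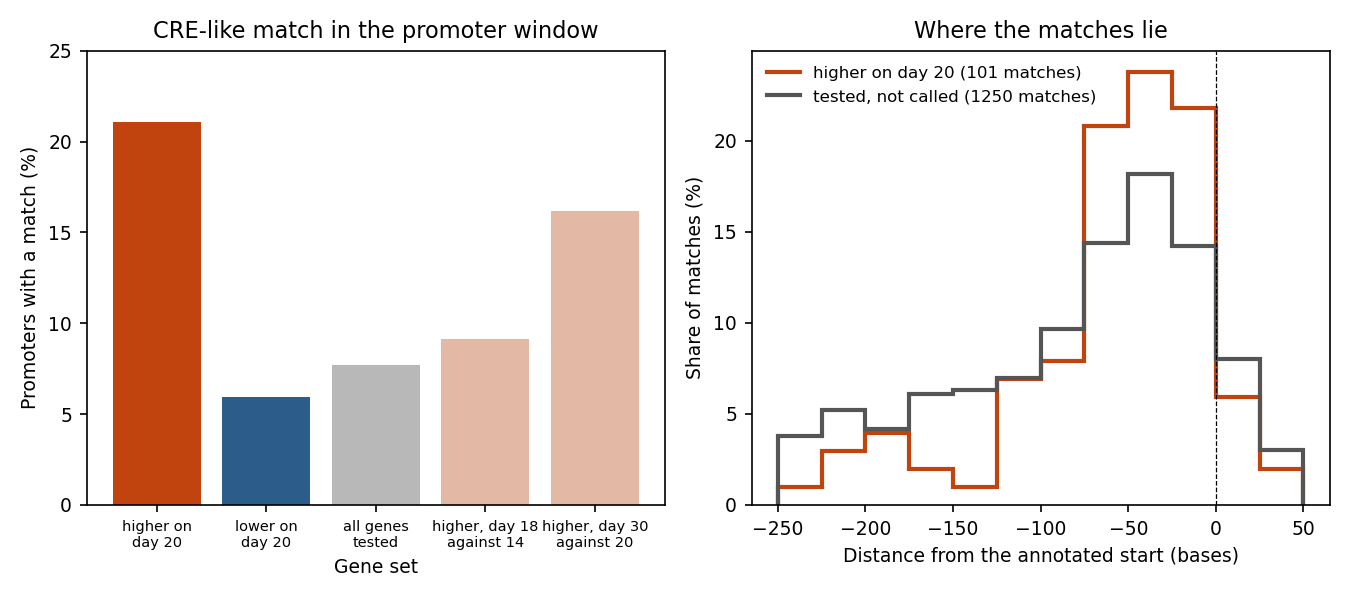
Left, the percentage of promoters (250 bases before to 50 after the start) that hold the CRE-like letters, by gene set; right, the share of matches by distance from the annotated start in bins of 25 bases. The set higher on day 20 reaches 21.1%, the set lower on day 20 5.93% and all genes tested 7.68%, and its matches are most frequent in the 3 bins just before the start.

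Genes of the early and middle steps of meiosis were counted on short lists. Of all genes tested, 2.68% were higher and 0.822% lower at 2-fold, and 7.55% and 8.03% by the adjusted p alone. Of 15 genes of the synaptonemal complex and chromosome axis, all tested, 0 were called at 2-fold. By the adjusted p alone 1 (6.67%) rose, and the median log2 difference was -0.08. The riser was Syce1, a central element protein, with 2706 and 2639 on day 20, against 1937 and 2050 on day 18 (0.42 ± 0.10, adjusted p = 0.00587). Sycp3, of the lateral element, had 3550 and 3157 on day 20, against 3408 and 3676 on day 18 (-0.08 ± 0.10, adjusted p = 0.63), with overlapping arrays. Of 14 recombination genes, 0 were called at 2-fold, and 1 (7.14%) was higher and 2 (14.3%) lower by the adjusted p alone. Psmc3ip, a partner of the strand-exchange protein DMC1, had 1816 and 1828 on day 20, against 1355 and 1411 on day 18 (0.40 ± 0.09). Tex11, an X-linked factor of crossover formation, had 109 and 87.4 on day 20, against 168 and 141 on day 18 (-0.61 ± 0.18), and Rpa2, of the single-strand binding complex, 255 and 240.1 on day 20, against 357 and 333 on day 18 (-0.47 ± 0.14). Spo11, which makes the breaks that start recombination, had 962 and 975 on day 20, against 657 and 648 on day 18. Its arrays did not overlap, but the difference of 0.56 ± 0.20 missed the threshold (adjusted p = 0.0632). Dmc1 itself had 119 and 117 on day 20, against 147 and 162 on day 18 (-0.37 ± 0.19, adjusted p = 0.2).

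Of 19 genes of the PIWI and piRNA pathway, which silences transposons and binds germ cell transcripts, 0 were called at 2-fold. By the adjusted p alone Tdrd7 and Ddx25 were higher and Mov10l1 lower. These are 10.5% and 5.26% of the list, against 7.55% and 8.03% of all genes tested. Tdrd7, a chromatoid body protein, had 1262 and 1177 on day 20, against 742 and 750.1 on day 18 (0.70 ± 0.10). Another probe set of Tdrd7 differed by -0.98, so its direction depends on the probe set. Ddx25, an RNA helicase needed for spermatid maturation, had 2093 and 2172 on day 20, against 1610 and 1526 on day 18 (0.44 ± 0.13), and Mov10l1, the helicase that feeds piRNA precursors, 463 and 464 on day 20, against 632 and 619 on day 18 (-0.43 ± 0.12). Piwil1, the carrier of pachytene piRNAs, had 1512 and 1410 on day 20, against 1566 and 1494 on day 18 and overlapping arrays. The list's median was -0.04 and turned to 0.04 with a common median.

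Some genes of prophase exit and the meiotic divisions moved. Of 36 on the list, 34 were tested, with a median of 0.18. At 2-fold 2 (5.88%) rose and 1 (2.94%) fell, against 2.68% and 0.822% of all genes tested. By the adjusted p alone 11 (32.4%) were higher and 4 (11.8%) lower, against 7.55% and 8.03%. Ccna1, the cyclin that male germ cells need to enter the first division, had 628 and 555 on day 20, against 228 and 267 on day 18 (1.23 ± 0.35, adjusted p = 0.0219). Its mean on day 14 was 8.74. Leaving out 1 array gave 5 to 9 higher by the adjusted p alone, 5 without day 20 replicate 1 and 6 without day 18 replicate 1, and 1 to 4 lower, 1 without day 18 replicate 2 and 2 without day 20 replicate 2. Plk1, a kinase of the division spindle, had 368 and 315 on day 20, against 146 and 156 on day 18 (1.13 ± 0.11, adjusted p = 2.61e-06). The chromosomal passenger kinase Aurkc, which acts in meiosis, had 419 and 393 on day 20, against 211 and 233 on day 18 (0.85 ± 0.22), and Aurka, of the spindle poles, 1176 and 1151 on day 20, against 731 and 727 on day 18 (0.67 ± 0.09). Birc5, Ccnb2 and Pttg1 rose by 0.51, 0.53 and 0.48. On each of these, both day 20 arrays were above both day 18 arrays.

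Other genes of the same list went the other way. Sgo1, the shugoshin that guards sister cohesion at mitotic centromeres, had 51.7 and 41.4 on day 20, against 112 and 122 on day 18 (-1.21 ± 0.31, adjusted p = 0.0114), while its other probe set differed by 0.23 and the mean of both, -0.49, was not called. Ccna2, the cyclin of the mitotic cycle, had 217 and 250.2 on day 20, against 327 and 360.2 on day 18 (-0.54 ± 0.10), and Plk4, of centriole duplication, 316 and 308 on day 20, against 406 and 445 on day 18 (-0.44 ± 0.10). Cdc25c differed by -0.94 at the probe set used, and another one by 1.38. Hspa2, the chaperone that spermatocytes need to leave prophase, had 2073 and 2028 on day 20, against 1814 and 1756 on day 18 (0.20 ± 0.13, adjusted p = 0.351). The Ccna1 call was lost without any 1 of the 4 arrays (adjusted p 0.0634 to 0.141), and the Sgo1 call without either day 18 array or day 20 replicate 2 (adjusted p 0.0608 to 0.0838), whereas Plk1 kept its call under each alternative.

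Regulators of the pachytene and spermatid programmes went both ways. All 32 on the list were tested. At 2-fold 3 (9.38%) were higher and 1 (3.12%) lower, against 2.68% and 0.822% of all genes tested. By the adjusted p alone 10 (31.2%) were higher and 6 (18.8%) lower, against 7.55% and 8.03%. Leaving out any 1 array gave 3 to 5 higher and 1 to 3 lower by the adjusted p alone, and 1 or 2 higher at 2-fold. Spz1, a helix-loop-helix factor of spermatids, had 190.4 and 166 on day 20, against 52.3 and 42.3 on day 18 (1.76 ± 0.37, adjusted p = 0.00337). Fhl5, the LIM-domain coactivator of CREM, had 14.0 and 41.3 on day 20, against 3.90 and 3.30 on day 18 (1.52 ± 0.46, adjusted p = 0.0298), and Kif17, a kinesin that moves that coactivator, 114 and 99.4 on day 20, against 85.0 and 18.4 on day 18 (1.21 ± 0.40, adjusted p = 0.0475). For Kif17 day 18 replicate 1 was close to the day 20 arrays and replicate 2 far below. The Fhl5 and Kif17 calls were lost without 3 of the 4 arrays each, at adjusted p 0.109 to 0.284 and 0.116 to 0.63. Without day 18 replicate 2, the Kif17 difference was 0.30. With values floored at the pooled median, 34.55, the Fhl5 and Kif17 calls were lost, and with the smaller constant at the 5th percentile that of Spz1 was lost too (adjusted p 0.118).

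Crem rose just short of 2-fold, with 814 and 748 on day 20, against 402 and 403 on day 18 (0.94 ± 0.24, adjusted p = 0.0129). Crem has 4 probe sets, the lowest of which differed by -0.58; the gene makes repressor and activator isoforms, and the array does not name them here. Tbpl1, the TBP-like factor that spermatids need, had 3033 and 2904 on day 20, against 1517 and 1601 on day 18 (0.93 ± 0.11, adjusted p = 2.14e-05), Gtf2a1l, its germ cell TFIIA partner, 1892 and 1843 on day 20, against 941 and 1093 on day 18 (0.87 ± 0.28), and Ovol2 177 and 209 on day 20, against 100.3 and 95.0 on day 18 (0.92 ± 0.29). Both day 20 arrays were above both day 18 arrays for Tbpl1, Gtf2a1l and Ovol2. In the opposite direction, Sohlh1, a factor of spermatogonia, had 32.9 and 46.9 on day 20, against 95.8 and 80.6 on day 18 (-1.02 ± 0.33, adjusted p = 0.0431), and Taf4b 313 and 328 on day 20, against 516 and 438 on day 18 (-0.56 ± 0.10). The Sohlh1 call was lost without any 1 of the 4 arrays (adjusted p 0.064 to 0.24) and under both other scalings.

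Many genes of the acrosome and of egg binding rose. Of 41 listed, 39 were tested. At 2-fold 14 (35.9%) were higher and 0 lower, against 2.68% and 0.822% of all genes tested. By the adjusted p alone 20 (51.3%) were higher and 0 lower, against 7.55% and 8.03%. The median difference was 0.79, and the median over all genes tested was -0.07. Izumo3, a sperm membrane protein of the Izumo family, had 116 and 80.9 on day 20, against 6.64 and 16.0 on day 18 (2.49 ± 0.36, adjusted p = 0.000136). Spam1, the hyaluronidase whose promoter is printed above, had 54.7 and 50.1 on day 20, against 3.06 and 4.52 on day 18 (2.38 ± 0.35, adjusted p = 0.000194). Zp3r, a matrix protein of the acrosome, had 71.6 and 47.2 on day 20, against 11.1 and 1.56 on day 18 (2.31 ± 0.39, adjusted p = 0.000543). All 3 had day 18 values near the low end of the scale and day 20 values above it. With 1 array left out, 11 to 14 were higher at 2-fold and 11 to 15 by the adjusted p alone, the lowest, 11 and 11, without day 18 replicate 1. With values floored at the pooled median the calls of Spam1, Zp3r, Tmem190, Spaca7 and Izumo2 were lost.

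Other members started from a higher level. Spaca1, a membrane protein of the acrosome, had 278 and 232 on day 20, against 88.6 and 88.6 on day 18 (1.44 ± 0.19, adjusted p = 8.43e-05), and Prss21, a serine protease of the sperm surface, 738 and 664 on day 20, against 238 and 243 on day 18 (1.51 ± 0.33, adjusted p = 0.00414). Zpbp, a structural protein of the acrosome, had 1918 and 1831 on day 20, against 889.8 and 928 on day 18 (1.04 ± 0.18, adjusted p = 0.000841), but the mean of its 2 probe sets differed by 0.19, and after quantile normalization the difference was 0.92, under 2-fold. The Prss21 call was lost with the smaller constant (adjusted p 0.0952). Acr, the protease acrosin, had 938 and 967 on day 20, against 632 and 677 on day 18 (0.54 ± 0.17, adjusted p = 0.0369), under 2-fold. Spaca3, Eqtn, Tmem190, Acrv1, Spaca7 and Lyzl6 rose by 1.93 to 2.29. Calls that failed without 1 array were those of Acrbp (each of the 4 arrays, adjusted p 0.0868 to 0.16), Izumo2 (3 of the arrays, 0.0622 to 0.304) and Spaca7 (day 18 replicate 1, 0.0889).

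The ADAM proteins, membrane proteases and relatives of which several sit on the sperm surface, rose in part. Of 16, 15 were tested, with a median of 0.85. At 2-fold 4 (26.7%) were higher and 0 lower, against 2.68% and 0.822% of all genes tested. Adam3, which sperm need to bind the zona and to enter the oviduct, had 1552 and 1559 on day 20, against 612 and 734 on day 18 (1.20 ± 0.20, adjusted p = 0.000543). Adam32 had 1663 and 1647 on day 20, against 867 and 939 on day 18 (0.87 ± 0.18). Adam26a and Adam24 rose by 1.89 and 1.50 from day 18 values near the low end. The call of the remaining riser, Adam25, was lost without any of 3 arrays (adjusted p 0.0812 to 0.224) and under both other scalings, and the floor ended the calls of Adam24, Adam25 and Adam26a.

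Several axoneme and cilium genes rose. Of 73 listed, 71 were tested. At 2-fold 9 (12.7%) were higher, against 2.68% of all genes tested, and by the adjusted p alone 21 (29.6%), against 7.55%. By either rule 0 were lower, against 0.822% and 8.03% of all genes tested. Of the 71 differences 62 were positive, with a median of 0.56. Leaving out 1 array gave 5 to 8 higher at 2-fold and 9 to 13 by the adjusted p alone: 5 and 9 without day 20 replicate 1, 6 and 9 without day 18 replicate 1, 7 and 12 without day 20 replicate 2 and 8 and 13 without day 18 replicate 2. Beside Spag6, Tekt4, a filament protein of the doublet microtubules, had 449 and 389 on day 20, against 93.8 and 114 on day 18 (1.94 ± 0.47, adjusted p = 0.00881), and Tekt3 582 and 591 on day 20, against 224 and 262 on day 18 (1.25 ± 0.31). Foxj1, the transcription factor of motile cilia, had 80.8 and 57.0 on day 20, against 21.3 and 10.7 on day 18 (1.71 ± 0.34, adjusted p = 0.00246). Enkur, which binds TRP channels in sperm, had 849.9 and 879 on day 20, against 365 and 408 on day 18 (1.15 ± 0.16, adjusted p = 0.000123), and Rsph6a, a radial spoke head protein, 568 and 484 on day 20, against 207 and 216 on day 18 (1.28 ± 0.27). Dnaic2, a dynein intermediate chain, had 248 and 218 on day 20, against 101 and 95.3 on day 18 (1.18 ± 0.28). Tekt2, Spag16 and Drc1 rose by 0.91, 0.86 and 0.82, short of 2-fold. Calls lost without 1 array were those of Tekt3 (3 arrays, adjusted p 0.0556 to 0.0913), Tekt4 (both replicate 1 arrays, 0.0672 to 0.0817), Dnaic2 (day 20 replicate 1, 0.0595, and 0.76 with the mean of all probe sets) and Nme8 (each of the 4 arrays, 0.0584 to 0.111).

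Of 29 fibrous sheath and outer dense fibre genes, all tested, 13 (44.8%) rose at 2-fold, against 2.68% of all genes tested. By the adjusted p alone 16 (55.2%) rose, against 7.55%, with 0 lower by either rule and a median of 0.82. Akap3, an anchor for protein kinase A in the sheath, had 448 and 457 on day 20, against 60.4 and 61.3 on day 18 (2.74 ± 0.23, adjusted p = 8.45e-07), nearly the same within each day. With 1 array left out, 9 to 12 were higher at 2-fold, 9 without day 18 replicate 1. Ropn1, which docks on that anchor, had 175 and 143 on day 20, against 25.4 and 28.5 on day 18 (2.25 ± 0.45, adjusted p = 0.00234). Odf1, the main outer dense fibre protein, had 117 and 180.0 on day 20, against 45.0 and 27.2 on day 18 (1.83 ± 0.33, adjusted p = 0.00111). Cabyr, a calcium-binding sheath protein, had 120.3 and 114 on day 20, against 27.6 and 26.2 on day 18 (1.85 ± 0.22, adjusted p = 2.26e-05), with probe sets from -0.03 to 2.79. Oaz3, the antizyme of spermatids, had 143 and 143 on day 20, against 35.4 and 32.1 on day 18 (1.86 ± 0.39, adjusted p = 0.00344), with 6 probe sets from -0.87 to 1.86, the mean of which, 0.25, was not called. Akap4, the X-linked main sheath protein, had 61.4 and 88.8 on day 20, against 28.5 and 13.0 on day 18 (1.57 ± 0.37, adjusted p = 0.0079). Without day 18 replicate 2 or day 20 replicate 2 its call was lost (adjusted p 0.0768 to 0.0979), and its mean on day 30 was 2984. The floor ended the calls of Akap4, Odf3 and Aldoart1.

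Germ cells replace several enzymes of glycolysis by their own isoforms, some of them bound to the sheath. The list of germ cell energy metabolism holds such isoforms, and also transporters and enzymes of mitochondria. Of its 31 genes, all tested, 7 (22.6%) were higher at 2-fold, against 2.68% of all genes tested. By the adjusted p alone 15 (48.4%) were higher, against 7.55%, with 0 lower by either rule and a median of 0.48. The count at 2-fold was 3 without day 18 replicate 1 and 4 without day 20 replicate 1, and by the adjusted p alone 6 and 8. Slc22a14, a transporter of sperm, had 83.6 and 80.1 on day 20, against 5.38 and 4.77 on day 18 (2.80 ± 0.34, adjusted p = 2.85e-05). Pgk2, the phosphoglycerate kinase of germ cells, had 1111 and 955 on day 20, against 362 and 406 on day 18 (1.41 ± 0.33, adjusted p = 0.00777), and its somatic counterpart Pgk1, on the X chromosome, 394 and 401 on day 20, against 596 and 531 on day 18 (-0.49 ± 0.12, adjusted p = 0.00927). The Pgk2 call was lost without day 18 replicate 1 or day 20 replicate 1 (adjusted p 0.0693 to 0.0738). Ldhc, the lactate dehydrogenase of germ cells, was already high and had 7839 and 8081 on day 20, against 6045 and 6463 on day 18 (0.35 ± 0.22, adjusted p = 0.32). Hk1, a hexokinase with a germ cell form, had 552 and 519.6 on day 20, against 242 and 275 on day 18 (1.03 ± 0.12, adjusted p = 1.99e-05), and Gpd2, of mitochondria, 119 and 108 on day 20, against 45.1 and 49.2 on day 18 (1.14 ± 0.14, adjusted p = 3.15e-05). With the mean of all probe sets Gpd2 was 0.50 and Hk1 0.98, and neither was called. Slc2a5, the fructose transporter, had 871 and 720.4 on day 20, against 389 and 427 on day 18 (0.95 ± 0.18). Gapdhs, the glyceraldehyde dehydrogenase of sperm, had 119.7 and 83.6 on day 20, against 82.1 and 68.2 on day 18 (0.38 ± 0.20, adjusted p = 0.207), and 3783 on day 30. Calls that failed without 1 array were also those of Hk1 (replicate 1 of either day, where the difference fell just under 2-fold), Aldoart1 (day 18 replicate 1, adjusted p 0.0627) and Slco6c1 (each of the 4 arrays, 0.0912 to 0.141).

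Of 18 genes on a list of somatic isoforms of energy metabolism, 0 were called at 2-fold. By the adjusted p alone 2 (11.1%) were higher and 7 (38.9%) lower, against 7.55% and 8.03% of all genes tested. The list's median was -0.32. With a common median, 2 were lower, and without day 18 replicate 1 or day 20 replicate 1 also 2, and 4 without day 20 replicate 2, so this count depends on the scaling and on single arrays. Pgam1, a phosphoglycerate mutase, had 523 and 489 on day 20, against 727 and 732 on day 18 (-0.52 ± 0.09, adjusted p = 0.000681). Ldha, which testis expresses beside Ldhc, rose, with 3445 and 3294 on day 20, against 2458 and 2553 on day 18 (0.43 ± 0.09, adjusted p = 0.00412).

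Among 38 testis kinase and signalling genes, 36 were tested, with a median of 0.27. At 2-fold 6 (16.7%) were higher and 0 lower, against 2.68% and 0.822% of all genes tested. Plcz1, the phospholipase with which sperm start calcium waves in the egg, had 129 and 62.9 on day 20, against 3.31 and 14.9 on day 18 (2.63 ± 0.35, adjusted p = 7.83e-05). Tssk2, a serine kinase of spermatids, had 71.7 and 66.6 on day 20, against 11.1 and 4.52 on day 18 (2.33 ± 0.28, adjusted p = 2.14e-05), and Tssk1 139 and 191 on day 20, against 94.9 and 99.9 on day 18 (0.70 ± 0.21). Ppp3r2, the testis subunit of calcineurin, had 2244 and 2385 on day 20, against 1048 and 1175 on day 18 (1.05 ± 0.22, adjusted p = 0.00297). Pde1a, a calmodulin-dependent phosphodiesterase, had 153 and 123 on day 20, against 47.1 and 56.4 on day 18 (1.28 ± 0.20), and Plcd4 259.8 and 249 on day 20, against 105 and 108 on day 18 (1.20 ± 0.25); the mean of all probe sets gave 0.76 and 0.40 and neither was called. Without day 18 replicate 1 the Ppp3r2 difference was 0.97, and after quantile normalization 0.91, under 2-fold. With the floor Tssk2 was just under 2-fold.

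Of 26 sperm ion channels and transporters, 24 were tested. At 2-fold 2 (8.33%) were higher, against 2.68% of all genes tested. By the adjusted p alone 4 (16.7%) were higher, against 7.55%, with 0 lower by either rule. Kcnu1, the SLO3 potassium channel of sperm, had 47.4 and 55.3 on day 20, against 5.92 and 6.00 on day 18 (2.10 ± 0.30, adjusted p = 0.000122). Aqp7 had 31.1 and 41.0 on day 20, against 4.77 and 17.8 on day 18 (1.28 ± 0.36, adjusted p = 0.0214), with a wide gap between the day 18 arrays. Its call was lost without any of 3 arrays (adjusted p 0.0533 to 0.261), and its other probe set differed by -0.57. The floor ended the calls of Aqp7 and Kcnu1, and the ion channel count was 1 without either replicate 1 array. Catsper2, a subunit of the sperm calcium channel, had 1081 and 1001 on day 20, against 556 and 559 on day 18 (0.89 ± 0.15, adjusted p = 0.000504), with another probe set at -0.27, and the voltage-gated calcium channel gene Cacna1h 349.7 and 340.1 on day 20, against 177 and 193 on day 18 (0.87 ± 0.14, adjusted p = 0.00035). Catsper1, the pore subunit, had 38.4 and 52.2 on day 20, against 16.8 and 19.8 on day 18 (1.01 ± 0.43, adjusted p = 0.119).

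Genes of haploid chromatin and of the histone to protamine exchange were at different points. The list also holds other spermatid proteins, of mitochondria and of the cytoskeleton, so its counts are not of chromatin proteins alone. Of 47, all tested, 8 (17%) were higher at 2-fold and 0 lower, against 2.68% and 0.822% of all genes tested. By the adjusted p alone 13 (27.7%) were higher and 1 (2.13%) lower, against 7.55% and 8.03%. The list's median was 0.21. Tnp1, the major transition protein, had 58.6 and 30.9 on day 20, against 2.63 and 2.75 on day 18 (2.27 ± 0.28, adjusted p = 2.84e-05), and 9678 on day 30. Prm3, from the protamine cluster, had 69.9 and 58.6 on day 20, against 13.6 and 14.3 on day 18 (1.72 ± 0.34, adjusted p = 0.00206). Prm1 had 30.5 and 21.3 on day 20, against 5.45 and 9.60 on day 18 (1.13 ± 0.42, adjusted p = 0.0747), with no overlap but short of the threshold. Prm2, the other main protamine, had 56.1 and 65.9 on day 20, against 59.4 and 59.6 on day 18 (0.03 ± 0.32), and Tnp2 3.50 and 6.36 on day 20, against 2.14 and 9.38 on day 18 (-0.05 ± 0.29), and the arrays of both overlapped. On day 30 Prm1, Prm2 and Tnp2 averaged 9494, 11550 and 8511. Spata19, a mitochondrial protein of spermatids on the same list, had 215 and 132 on day 20, against 18.2 and 24.8 on day 18 (2.60 ± 0.30, adjusted p = 1.87e-05), and Cnbd2 413 and 312 on day 20, against 56.6 and 57.7 on day 18 (2.50 ± 0.41). Actl7b, an actin-like protein of the spermatid cytoskeleton, rose by 1.07, and Rimbp3, of the manchette, had 2124 and 1940 on day 20, against 972 and 1121 on day 18 (0.95 ± 0.21). The call of Actrt1 was lost without any of 3 arrays (adjusted p 0.0813 to 0.202). After quantile normalization Actl7b was just under 2-fold, and the floor ended the calls of Tnp1, Prm3 and Actrt1. Omitting any array gave 7 or 8 higher at 2-fold and 8 or 9 by the adjusted p alone.

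**Figure D4:**
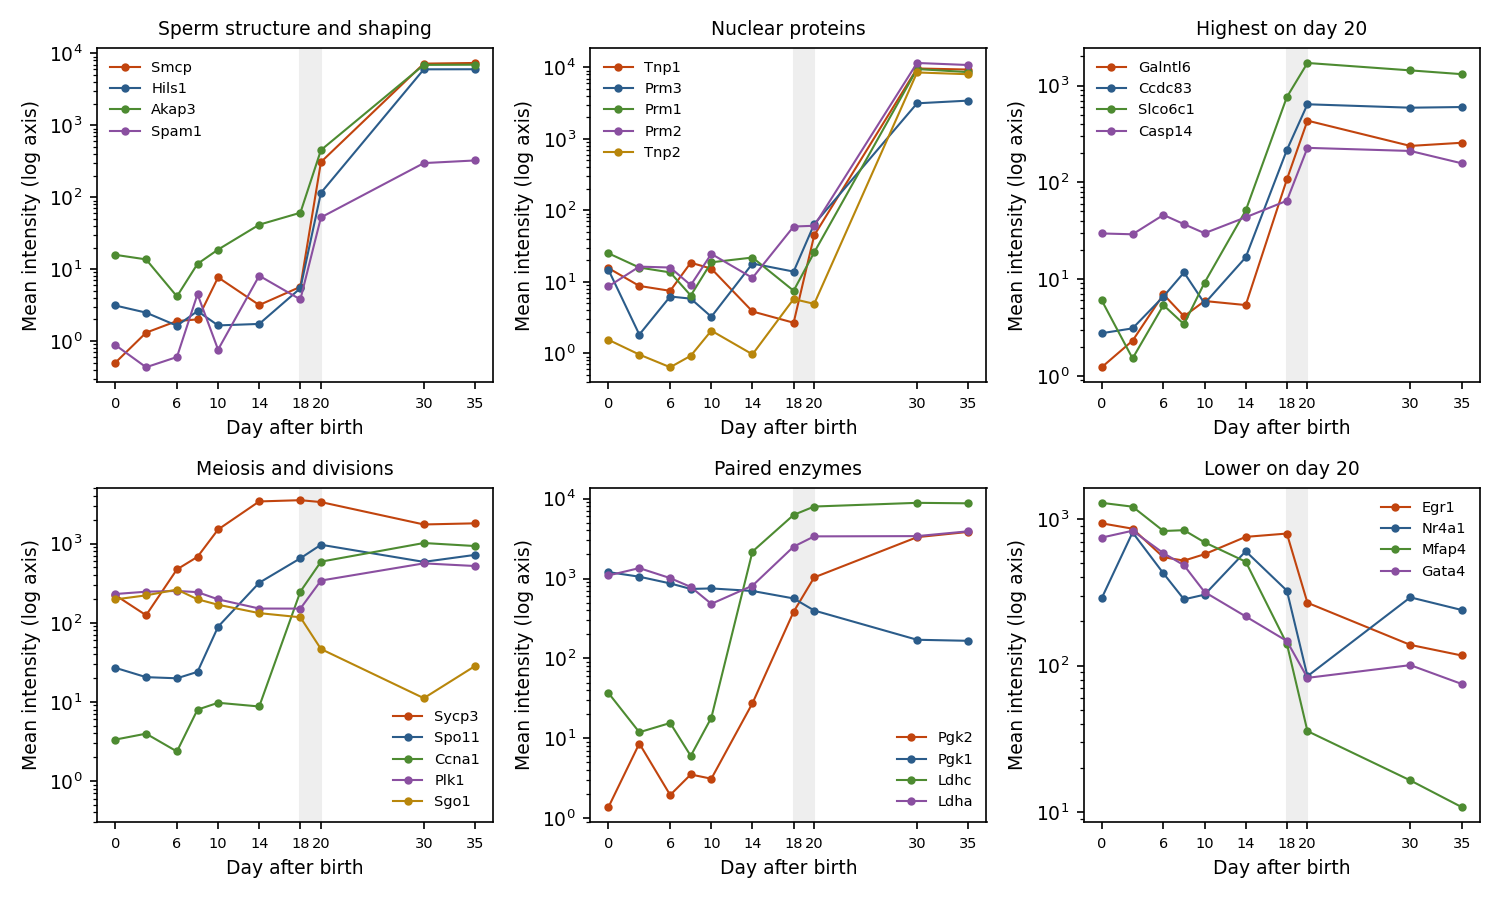
Mean intensity of 2 arrays a day (log axis) against day after birth for genes named in the text; the grey band marks days 18 to 20. Smcp and Hils1 climb within the band and again by day 30, Prm2 and Tnp2 climb after it, Galntl6 is highest on day 20, and Egr1 and Mfap4 drop within it.

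Of 39 proteolysis and ubiquitin genes of germ cells, all tested, 2 (5.13%) were higher at 2-fold, against 2.68% of all genes tested. By the adjusted p alone 9 (23.1%) were higher and 2 (5.13%) lower, against 7.55% and 8.03%. The count higher by the adjusted p alone was 1 without day 18 replicate 1, 4 without day 20 replicate 1, 5 without day 18 replicate 2 and 6 without day 20 replicate 2. Klhl10, the spermatid partner of the CUL3 ligase, had 124 and 97.8 on day 20, against 23.1 and 18.7 on day 18 (2.04 ± 0.25, adjusted p = 2.56e-05). Fbxw10 had 422 and 435 on day 20, against 209.8 and 178 on day 18 (1.12 ± 0.33, adjusted p = 0.0287), a call lost without any 1 of the 4 arrays (adjusted p 0.0917 to 0.141).

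**Figure D5:**
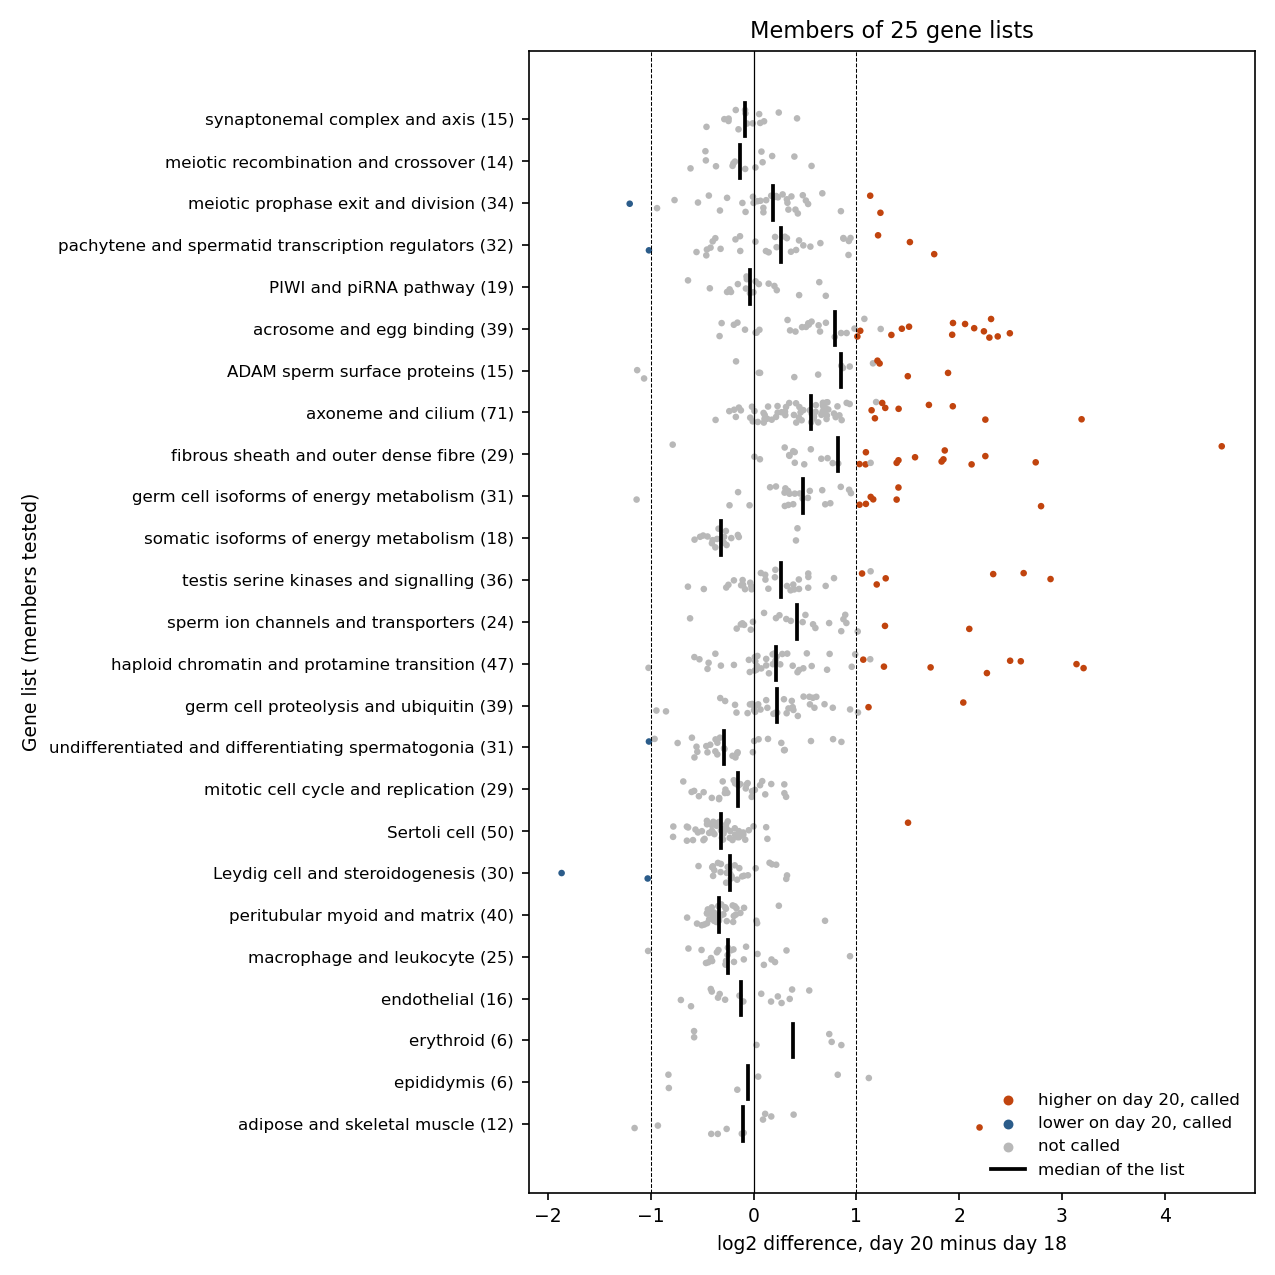
Log2 difference of day 20 minus day 18 for each tested member of 25 gene lists, with the median of each list as a bar and dashed lines at 2-fold. Coloured points are called genes. They lie to the right in the lists of acrosome, ADAM, axoneme, sheath, germ cell energy and kinases, and in that of chromatin, which holds other spermatid proteins too. The bars of the Sertoli, myoid and spermatogonia lists lie left of 0.

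The genes that fell were fewer and dimmer. The median of their means was 15.5 on day 20 and 50.4 on day 18, 88 of 135 (65.2%) averaged under 21.63 on day 20, and 22 averaged at least 100 on day 18. Nr4a1, an orphan nuclear receptor induced in Leydig and other cells, had 67.2 and 102 on day 20, against 339 and 309.6 on day 18 (-1.87 ± 0.15, adjusted p = 8.45e-07). Mfap4, a protein of elastic fibres, had 45.2 and 26.2 on day 20, against 171 and 111 on day 18 (-1.77 ± 0.21, adjusted p = 1.87e-05), and Olfml3, a secreted matrix protein, 32.2 and 32.4 on day 20, against 126 and 111 on day 18 (-1.65 ± 0.26, adjusted p = 0.000346). These 3 of the 15 largest falls kept their call under each alternative. Their day 20 arrays lay below their day 18 arrays, which the ranking required.

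The other 12 largest falls lost the call when values were floored at the pooled median, 34.55, where their differences ran from -0.91 (Arsi) to 0 (Plscr2). Gcdh, the glutaryl-CoA dehydrogenase of lysine breakdown, had 13.6 and 8.10 on day 20, against 69.3 and 54.9 on day 18 (-1.91 ± 0.33, adjusted p = 0.000691). Tox3, a nuclear HMG-box protein, had 3.63 and 9.50 on day 20, against 41.6 and 47.4 on day 18 (-1.89 ± 0.33, adjusted p = 0.000772), and Mmp9, a matrix protease, 10.6 and 7.86 on day 20, against 60.9 and 45.2 on day 18 (-1.83 ± 0.38, adjusted p = 0.00277). N6amt1, a methyltransferase, had 14.3 and 11.6 on day 20, against 59.4 and 67.3 on day 18 (-1.78 ± 0.35), and Tnfrsf12a, the receptor of TWEAK, 14.2 and 15.9 on day 20, against 43.1 and 97.4 on day 18 (-1.68 ± 0.29). Arsi, Ghdc, Uba7, Fbxo41, Bhlhe40, Plscr2 and Homer2 differed by -1.66 to -1.80. The calls of Bhlhe40 and Plscr2 were lost without either replicate 1 array (adjusted p 0.0652 to 0.0942 and 0.0621 to 0.0663), and that of Fbxo41 without day 18 replicate 1 (0.053). With the mean of all probe sets Uba7 was -0.35, Homer2 -0.62, Tnfrsf12a -0.83, Fbxo41 -0.89 and Mmp9 -0.96, and none of these was called. Outside the 15, C1qtnf12 had a clear level on both days, with 85.7 and 95.4 on day 20, against 265 and 242 on day 18 (-1.41 ± 0.15, adjusted p = 7.29e-06), though its 4 probe sets ran from -1.95 to 0.20 and their mean, -0.88, was under 2-fold.

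Most of the spermatogonial and mitotic genes that passed the adjusted p were lower. Of 32 markers of undifferentiated and differentiating spermatogonia, 31 were tested and 1 (Sohlh1) was lower at 2-fold, with a median of -0.29. By the adjusted p alone 1 (3.23%) was higher and 7 (22.6%) lower, against 7.55% and 8.03% of all genes tested. With a common median 3 were lower, and without day 18 replicate 1 or day 20 replicate 1 it was 2, and 4 without either of the other arrays. Stra8, which germ cells need to enter meiosis, had 297 and 295 on day 20, against 383 and 388 on day 18 (-0.37 ± 0.11, adjusted p = 0.0287), and Dnmt3b, a de novo DNA methyltransferase, 96.3 and 154 on day 20, against 185 and 236 on day 18 (-0.74 ± 0.18). Kit, the stem cell factor receptor, had 46.4 and 70.3 on day 20, against 118 and 120.4 on day 18 (-0.96 ± 0.36, adjusted p = 0.0762). Dmrtb1, which controls the switch from mitosis to meiosis, was the riser, with 1683 and 1618 on day 20, against 892 and 927 on day 18 (0.85 ± 0.21, adjusted p = 0.00907). Of 29 mitotic cycle and replication genes, all tested, 0 were called at 2-fold. By the adjusted p alone 1 (3.45%) was higher and 4 (13.8%) lower. The list's median was -0.15, against -0.07 over all genes. With a common median these were -0.08 and -0.005. Omitting any array gave 2 to 4 lower, 2 without day 20 replicate 1. Mcm5, of the replicative helicase, had 400.1 and 402 on day 20, against 605 and 623 on day 18 (-0.60 ± 0.09, adjusted p = 0.000276), and Cdt1, a replication licensing factor, 114 and 127 on day 20, against 173 and 194 on day 18 (-0.58 ± 0.10, adjusted p = 0.000733). Mki67, the proliferation marker, had 351 and 356 on day 20, against 417 and 445 on day 18 (-0.28 ± 0.12, adjusted p = 0.11).

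Of all genes tested, 9307 of 16429 differences were negative and 8.03% were lower by the adjusted p alone. With a common median 549 of the 16429 were lower. On the Sertoli cell list 36% were lower, and of its genes that passed the adjusted p nearly all were. All 50 were tested, 47 of 50 differences were negative, with a median of -0.31, and 18 were lower by the adjusted p alone, a count that was 15 after quantile normalization, 4 with a common median, 7 without day 18 replicate 1, 9 without day 20 replicate 1, 10 without day 18 replicate 2 and 11 without day 20 replicate 2. Gata4, a transcription factor of Sertoli and other somatic cells, had 76.2 and 88.7 on day 20, against 149 and 145 on day 18 (-0.78 ± 0.17, adjusted p = 0.005). Gata1 had 140.0 and 185 on day 20, against 278 and 234 on day 18 (-0.64 ± 0.18), and Sox9, the factor that sets Sertoli fate, 166 and 120.2 on day 20, against 212 and 188 on day 18 (-0.48 ± 0.16). Cldn11, of the tight junctions between Sertoli cells, had 579 and 526 on day 20, against 753 and 744 on day 18 (-0.43 ± 0.13), and Inha, the inhibin subunit, 1348 and 1229 on day 20, against 1667 and 1506 on day 18 (-0.30 ± 0.08). For each of these both day 20 arrays lay below both day 18 arrays, by less than 2-fold. Wt1, a factor of Sertoli identity, had 305 and 275 on day 20, against 356 and 356 on day 18 (adjusted p = 0.15). Amh, the hormone of immature Sertoli cells, had 10.5 and 12.8 on day 20, against 18.5 and 22.7 on day 18 (adjusted p = 0.204), and neither passed. The 1 member higher at 2-fold was Fgf2, a growth factor, with 23.2 and 29.3 on day 20, against 3.15 and 5.23 on day 18, and its call was lost without either day 18 replicate 1 or day 20 replicate 2 (adjusted p 0.0814 to 0.0978).

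Matrix and peritubular myoid genes that passed the adjusted p were nearly all lower. All 40 were tested, 0 were called at 2-fold, and the median was -0.34. By the adjusted p alone 12 (30%) were lower and 1 (2.5%) higher, against 8.03% and 7.55% of all genes tested. The lower count was 12 after quantile normalization, 4 with a common median, 5 without day 18 replicate 1, 5 without day 20 replicate 1, 6 without day 20 replicate 2 and 8 without day 18 replicate 2. Col4a1, a basement membrane collagen, had 611 and 674 on day 20, against 1068 and 956 on day 18 (-0.65 ± 0.10, adjusted p = 0.000412), and Col1a2, of fibrillar collagen, 729 and 824 on day 20, against 1165 and 1115 on day 18 (-0.55 ± 0.13). Their means on day 14 were 1852 and 3074, both above the day 18 values. Postn, a matrix protein, went the other way, with 219 and 199 on day 20, against 130.5 and 121 on day 18 (0.69 ± 0.15, adjusted p = 0.00469).

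Of 31 Leydig cell and steroidogenic genes, 30 were tested, with a median of -0.23, and 0 were higher by either rule. By the adjusted p alone 5 (16.7%) were lower, against 8.03% of all genes tested. That count was 7 after quantile normalization and 2 with a common median. At 2-fold 2 (6.67%) were lower, against 0.822% of all genes tested. The 2 were Nr4a1 and Thbs2, a matrix glycoprotein near the low end of the scale, whose call was lost without day 18 replicate 1 or day 20 replicate 2 (adjusted p 0.0619 to 0.0842) and under both other scalings. The lower count by the adjusted p alone was 2 without day 18 replicate 1 and 3 without day 20 replicate 2. Cyp17a1, Star and Hsd17b3, of androgen synthesis, were not called. Cyp17a1 had 529 and 585 on day 20, against 698 and 633 on day 18 (-0.25 ± 0.12, adjusted p = 0.159), Star, which brings cholesterol into mitochondria, 217 and 225 on day 20, against 249.8 and 266 on day 18 (-0.22 ± 0.19), and Hsd17b3 102 and 105 on day 20, against 91.9 and 83.8 on day 18 (0.22 ± 0.13). Cyp17a1 reached 2424 on day 30.

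Few markers of other cells passed a test, on short lists. By the adjusted p alone 7.55% of all genes tested were higher and 8.03% lower. Of 25 macrophage and leukocyte genes tested, 0 were called and 1, Csf1r, the receptor that macrophages need, was lower by the adjusted p alone, with 529 and 529 on day 20, against 718 and 699 on day 18 (-0.42 ± 0.11). The summed intensities of that list were 4608 and 4576 on day 20 against 5448 and 5689.6 on day 18. Of 16 endothelial, 6 erythroid and 6 epididymal genes tested, 0 passed either rule, and the summed intensities were 602 and 688 on day 20 against 746 and 636 on day 18 for the endothelial list, 103 and 222 on day 20 against 162 and 120.4 on day 18 for the erythroid list, and 137 and 109 on day 20 against 113 and 93.8 on day 18 for the epididymal list. For fat and skeletal muscle 12 were tested and the sums were 405 and 313 on day 20 against 325 and 396 on day 18. 1 of them, Adipoq, the adipocyte hormone adiponectin, was higher, with 60.3 and 23.2 on day 20, against 2.09 and 2.29 on day 18 (2.20 ± 0.45, adjusted p = 0.00282), and its call was lost without day 20 replicate 1 (adjusted p 0.0605). Adipoq averaged 379.5 on day 30. The part of adjoining tissue in any difference was not tested.

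X-linked genes are silenced in pachytene spermatocytes, and some are switched on again in spermatids. Of 559 tested, 18 (3.22%) were higher and 11 (1.97%) lower at 2-fold, against 418 (2.66%) and 123 (0.782%) of 15735 autosomal genes. By the adjusted p alone 19 were higher and 96 lower, or 3.40% and 17.2%, against 7.72% and 7.74% of autosomal genes. The lower count was 71 after quantile normalization, 40 with a common median, 26 without day 18 replicate 1, 48 without day 20 replicate 1, and 66 and 67 without day 20 replicate 2 and day 18 replicate 2. The count higher at 2-fold was 10 to 15 without 1 array, 10 without day 18 replicate 1 and 11 without day 20 replicate 2. At 2-fold 7 to 13 were lower, 7 without day 18 replicate 1. Of the 15735 autosomal genes, 1027 were lower by the adjusted p alone after quantile normalization and 507 with a common median. The median difference was -0.25 for X-linked and -0.07 for autosomal genes. With a common median these were -0.18 and 0.001. Beside Tsga8 and Akap4, the risers included Cypt1, a cysteine-rich perinuclear theca protein, with 66.9 and 72.5 on day 20, against 2.05 and 5.59 on day 18 (2.75 ± 0.34, adjusted p = 3.77e-05). Zcchc13 had 58.9 and 62.6 on day 20, against 5.31 and 9.29 on day 18 (2.19 ± 0.29), and Fam47c 59.0 and 38.0 on day 20, against 3.09 and 2.28 on day 18 (2.40 ± 0.39). Their day 18 values were near the low end, and the floor ended the calls of Zcchc13 and Fam47c. Gripap1, a regulator of endosomal recycling, was among those that fell, with 51.7 and 24.6 on day 20, against 105 and 83.7 on day 18 (-1.21 ± 0.22, adjusted p = 0.00111), and without day 20 replicate 2 its difference was under 2-fold, at -0.77. Cypt1, Zcchc13, Fam47c and Gripap1 were picked after the values were seen.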

How the data were processed

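Testis RNA from 10 days after birth was taken up with Trizol and given a biotin label for 3' arrays, per the labels' protocols. The authors deposited linear intensities for 45101 probe sets on 20 arrays, and every array has the same 2% trimmed mean. What software summarized the probes was not named in the sources used. Control probe sets (64) were left out. Of the others 34945 had 1 gene symbol in the platform annotation, 932 several and 9160 none listed, and 34741 of the single-symbol probe sets matched RefSeq. Only single-symbol probe sets were used, and the one with the highest mean stood for its gene (18193 genes). Those of Tmco2, Akap3, Tsga8, Mcm5, Prm1 and Tnp2 have names that mark matches to more than 1 transcript. Genes above their array's 40th percentile on at least 2 arrays were tested (16429).

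Values were analysed as log2(intensity + 7.83), the constant being the pooled 20th percentile. limma 3.58.1 (R 4.3.3) fitted day as a factor over all 20 arrays (10 residual and 8.88 prior degrees of freedom, with an intensity trend), with Benjamini-Hochberg adjustment over all genes tested. Errors are standard errors of that fit, with n = 2 arrays a day. Python 3.11.15, pandas 2.3.3 and matplotlib 3.10.9 did the rest. The 19 alternatives changed scaling, constant, filter, probe set rule, variance model, threshold or arrays. The number of arrays limits the precision.

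Genes named are the 15 largest rises and falls among called genes whose days do not overlap (without clone symbols), the 3 members of each of 25 lists with the largest differences, and 30 benchmark genes. Further members are named as examples and were chosen after their values were seen. The members and lists were chosen with earlier results of these data known. Some named genes of these kinds are given only within a count or range.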

Additional observations from a re-analysis of the deposited data

How the results depend on the processing

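Against 441 higher and 135 lower genes, the constant at the 5th percentile gave 292 higher and an adjusted p under 0.01 gave 280 higher and 55 lower. The adjusted p alone gave 1240 higher and 1319 lower. The lower count was 87 with a common median, 44 with the constant at the 40th percentile, 85 with a filter at the array median on days 18 and 20, 47 with values floored at the pooled median, 79 with the mean of all probe sets, 66 with days 18 and 20 alone and 44 with days 14 to 35 alone. Leaving out 1 array gave 289 to 385 higher and 75 to 188 lower. The causes were not tested. Replicate 1 minus replicate 2 of day 20 and of day 18 correlated at 0.006 across genes, so equally numbered arrays showed no shared difference. A batch shared by both arrays of a day would not show in this value and cannot be told apart from the day. The replicate block gave 442 higher and 131 lower. Over the genes named and the 19 settings, 11 differences changed sign. With the mean of all probe sets Acta2 was 0.038, Cdc25c 0.22, Plk4 0.085 and Tdrd7 -0.14, and with a common median Piwil1 was 0.010. Leaving out 1 array, Cd163 ran from -1.27 to 0.0041, Il1a from -1.61 to 0.037, Prm2 from -0.075 to 0.13, Sycp3 from -0.16 to 0.0041 and Tnp2 from -0.44 to 0.35. Of 107 named genes called, 42 kept the call under all 19 settings and 65 lost it under at least 1. The floor ended 37 of these calls, the constant at the 5th percentile 23, that at the 40th 16, the mean of all probe sets 21, quantile normalization 8 and a common median 3. The calls lost with the constant at the 5th percentile include those of Ccna1, Pgk2, Tekt3, Tekt4, Nme8 and Slco6c1, at adjusted p 0.126 to 0.267.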

Other observations

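A set of immediate early genes, which cells switch on within minutes of a stimulus, was lower on day 20 in part. The set was put together after the values were seen, so its counts are a description. Of 23 tested, 5 were lower at 2-fold, namely Nr4a1, Bhlhe40, Egr1, Fos and Fosl2, and 0 higher, with a median difference of -0.51, where 0.822% of all genes tested were lower. The count was 3 without day 20 replicate 1 and 4 without day 18 replicate 1. Egr1, a zinc finger factor, had 286 and 249.7 on day 20, against 849.6 and 740.0 on day 18 (-1.54 ± 0.14, adjusted p = 1.22e-06). Fos, a subunit of AP-1, had 38.8 and 58.9 on day 20, against 142 and 115 on day 18 (-1.29 ± 0.31, adjusted p = 0.00857), but this call was lost without day 18 replicate 1 or day 20 replicate 1 (adjusted p 0.0907 to 0.1) and with days 14 to 35 alone (0.0622). The arrays of the days did not overlap for either gene. The summed intensities of the set were 2158 and 2061 on day 20 against 3539.7 and 3124 on day 18.

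Gene families with testis names were also counted after the values were seen. Of 20 genes named Spata plus a number 5 were higher at 2-fold, of 32 named Tex 9, of 4 named Cypt 4, of 202 named Tmem 5, and of 22 named Rpl and 20 named Rps 0, where 2.68% of all genes tested were higher. In these families 0 were lower. The Tex count was 5 or 6 without 1 array. Of 1443 symbols of clones, predicted genes and expressed sequences, 96 (6.65%) were higher and 12 (0.832%) lower, where 2.68% and 0.822% of all genes tested were. Leaving out 1 array gave 58 to 88 higher and 5 to 11 lower, 58 and 5 without day 18 replicate 1.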
